A study of Mus musculus with 10 samples.

Results

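The long noncoding RNA genes that mouse pancreatic islets express well were examined in one RNA-sequencing comparison of 2 diets. A gene was taken where the deposited table gave it the biotype lincRNA, antisense or processed_transcript and where its raw read count averaged at least 200 over the 10 libraries. This left 93 of the 27665 genes in the table, and 4085 genes had one of these biotypes. The 93 comprised 44 lincRNA genes, 26 processed_transcript genes and 23 antisense genes on 19 chromosomes. The members were chosen by their mean count, so their levels are given as a description. The difference between the diets is no part of this rule. Earlier results of these data were known, however, when the members and the gene lists used below were chosen.

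Islets came from male C57BL/6J mice that were 8 to 10 weeks old when feeding began and that received a western diet (5 mice) or standard chow (5 mice) for 4 weeks. No transgene, deletion or drug is named in the labels of either group. Islets were processed directly after isolation, and each library stands for 1 mouse. The western diet mice were 4 from cage 4 and 1 from cage 2, and all chow mice were from cage 3, so diet and cage cannot be told apart. The deposited counts summed to 16532518 in the smallest library and 23902681 in the largest. Summed CPM (counts scaled to library size) of 8 beta cell markers reached 238117 to 272908 on western diet and 228432 to 264341 on chow, with none of the 8 at 0, so the tissue label holds. Values per mouse are listed below as cage 4 mouse 1, 2, 4 and 5 and then cage 2 mouse 5 for western diet, and as mouse 1 to 5 for chow.

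Long noncoding RNAs are transcribed and usually spliced like messenger RNAs but carry no long conserved reading frame. Some stay in the nucleus and build or sit in nuclear bodies, as Neat1 does in paraspeckles and Malat1 in speckles. Others act on the gene next to them, are imprinted, or matter mainly for what their introns hold, since many small nucleolar RNAs (snoRNAs) and microRNAs are cut from such hosts. In islets, antisense and divergent transcripts accompany several transcription factor genes, Pax6 and Pdx1 among them.

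The table's biotype was checked against other annotation. RefSeq (GRCm38.p6) matched 75 of the 93 genes and lists 61 of them as long noncoding, 12 as protein coding and 2 as pseudogenes. Cct6a, a subunit gene of the chaperonin that folds actin and tubulin, Trerf1, a zinc finger transcription factor gene, Ifi30, Tctn2 and Tmem134 are among the 12. GENCODE M21, the annotation on the files' build (GRCm38), lists AC078895.1 and 6330403K07Rik as coding, which brings the coding genes to 13. Below, all 93 are described, and the count of calls is repeated without the 15 coding genes and pseudogenes. By exon position, 27 genes shared some exon bases with a coding gene, and none shared more than 50% of them. The files do not state whether counting used strand, so reads of an antisense gene and of the gene across from it cannot be told apart.

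The sequences of Gm15344, the gene with the largest diet difference of the 93, are shown first because its exons lie inside a coding gene on the same strand. Gm15344 (ENSMUSG00000084899) runs over chr10:86692119-86693095 on the minus strand of GRCm38 and has 421 exon bases. Its first exon, chr10:86692759-86693095, lies in an intron of Hsp90b1, the gene of the endoplasmic reticulum chaperone GRP94, and its second, chr10:86692119-86692202, has 63 of its 84 bases in Hsp90b1 coding sequence. Below are the last 200 bases of exon 1 followed by exon 2, from GENCODE M21, 5′ to 3′, with the 63 shared coding bases in capitals.
Gm15344: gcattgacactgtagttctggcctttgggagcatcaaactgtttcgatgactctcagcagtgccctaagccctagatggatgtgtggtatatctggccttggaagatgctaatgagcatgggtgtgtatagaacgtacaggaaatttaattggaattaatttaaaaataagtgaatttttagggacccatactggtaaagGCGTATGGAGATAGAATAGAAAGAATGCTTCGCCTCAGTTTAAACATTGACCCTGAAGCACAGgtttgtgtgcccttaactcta

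Start regions are shown for 3 of the genes called below whose RefSeq start matches the start in the table, so that the letters belong to the transcript that was counted. Each covers 250 bases before to 50 bases after the RefSeq start on GRCm38.p6, 5′ to 3′ on the gene's strand. Gm20300 is shown because it alone among the 7 called genes with a RefSeq promoter holds one of the 3 motifs searched, a pair of facing heat shock element repeats (GAANNTTC, in capitals). The other two motifs were the AP-1 site TGANTCA and the cAMP response element TGACGTCA, and both strands were searched for all 3 (each reads the same on both strands). The other two regions belong to the called genes that neighbour Pax6 and Hes1 and hold none of the 3.
Gm20300, chr10:30606585-30606884, minus strand: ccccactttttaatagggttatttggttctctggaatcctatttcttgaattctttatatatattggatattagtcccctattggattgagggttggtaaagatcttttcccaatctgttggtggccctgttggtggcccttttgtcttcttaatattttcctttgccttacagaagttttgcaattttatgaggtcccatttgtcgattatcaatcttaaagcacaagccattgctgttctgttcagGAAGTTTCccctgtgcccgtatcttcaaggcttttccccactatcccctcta
Pax6os1, chr2:105670281-105670580, minus strand: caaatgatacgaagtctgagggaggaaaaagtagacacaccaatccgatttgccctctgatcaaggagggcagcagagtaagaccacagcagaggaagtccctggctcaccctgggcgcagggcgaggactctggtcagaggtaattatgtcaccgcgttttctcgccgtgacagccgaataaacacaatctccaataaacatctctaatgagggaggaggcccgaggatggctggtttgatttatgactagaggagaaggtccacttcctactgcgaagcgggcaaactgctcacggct
4632428C04Rik, chr16:30008417-30008716, plus strand: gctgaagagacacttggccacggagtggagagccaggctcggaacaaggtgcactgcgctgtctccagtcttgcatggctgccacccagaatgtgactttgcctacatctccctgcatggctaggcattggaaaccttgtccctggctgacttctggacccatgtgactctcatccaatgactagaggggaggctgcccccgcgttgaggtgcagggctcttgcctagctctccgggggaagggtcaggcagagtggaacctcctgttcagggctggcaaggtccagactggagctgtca
Of the 63 genes with a RefSeq promoter, GAANNTTC was in 4, TGANTCA in 2 and TGACGTCA in 1, namely Meg3. Among 32817 RefSeq promoters of the same length the shares were 7.86% for GAANNTTC, 7.81% for TGANTCA and 1.79% for TGACGTCA. The median GC content was 54.7% over the 63 promoters and 56.7% over the 7 of called genes.

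MicroRNAs carried by these genes are shown because Mirg, a microRNA host, was called higher. Mature sequences and positions are from RefSeq (GRCm38.p6), with the seed (bases 2 to 8) in capitals. The first 8 lie in Mirg on chromosome 12, the next pair in A230057D06Rik on chromosome 7 and the last pair in A330023F24Rik on chromosome 1.
miR-134-5p, chr12:109734145-109734166, plus strand: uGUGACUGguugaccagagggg
miR-382-5p, chr12:109733781-109733802, plus strand: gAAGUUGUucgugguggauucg
miR-377-3p, chr12:109740553-109740574, plus strand: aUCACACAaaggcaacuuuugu
miR-541-5p, chr12:109742422-109742446, plus strand: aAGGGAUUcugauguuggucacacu
miR-409-3p, chr12:109743204-109743225, plus strand: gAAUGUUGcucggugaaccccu
miR-453, chr12:109735669-109735692, plus strand: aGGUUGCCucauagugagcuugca
miR-496a-5p, chr12:109739132-109739152, plus strand: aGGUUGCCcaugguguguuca
miR-410-3p, chr12:109743764-109743784, plus strand: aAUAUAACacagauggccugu
miR-344d-3p, chr7:61726256-61726277, minus strand: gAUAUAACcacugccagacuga
miR-344e-3p, chr7:61735539-61735560, minus strand: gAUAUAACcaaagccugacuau
miR-29b-3p, chr1:195037091-195037113, plus strand: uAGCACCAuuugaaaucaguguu
miR-29c-3p, chr1:195037600-195037621, plus strand: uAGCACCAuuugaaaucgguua
The Mirg product miR-410-3p has the seed AUAUAAC, as do miR-344d-3p and miR-344e-3p from the other chromosome. Within Mirg, miR-453 and miR-496a-5p share GGUUGCC, and miR-29b-3p and miR-29c-3p share AGCACCA. Only the host genes were counted, so the levels of the mature microRNAs were not measured.

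Levels were uneven over the 93 genes. Malat1, the nuclear speckle RNA, took 23.6% of all their counts, the 5 genes with the most counts took 57.3% and the 10 with the most took 66.3%. The 93 genes together took 0.478% to 0.618% of each western diet library and 0.534% to 0.713% of each chow library. Per length, in the authors' FPKM (counts divided by gene length and library size), the mean level ran from 0.171 for Kcnq1ot1, an imprinted antisense RNA counted over 93092 bases, to 200.2 for Malat1. The median was 7.59 FPKM, beside 8.44 FPKM over the 9003 coding genes with the same minimum mean count, and 33 of the 93 averaged at least 10 FPKM.

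Malat1 had 117, 93.2, 208, 228 and 161 FPKM in western diet islets, against 330, 242, 289, 170 and 164 FPKM in chow islets. The short pseudogene Gm10076 followed with 84.2 to 201 FPKM on western diet and 155 to 197 FPKM on chow, and its low value came from cage 4 mouse 5. Next came Gm15344 at 74.9 FPKM over all libraries, 2900097C17Rik at 68.5, AC078895.1 at 61.7 and Meg3 at 48.3 FPKM. Meg3 is a maternally expressed imprinted RNA known for high levels in beta cells. In structure, the 93 genes had 384 to 93092 exon bases (median 3429), and 20 of them were a single exon block. Just inside the count minimum stood N4bp2os and Pax6os1 with mean counts of 206.0 and 210.3, and just outside it AI480526 and A630052C17Rik with 199.7 and 198.6.

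**Figure D1:**
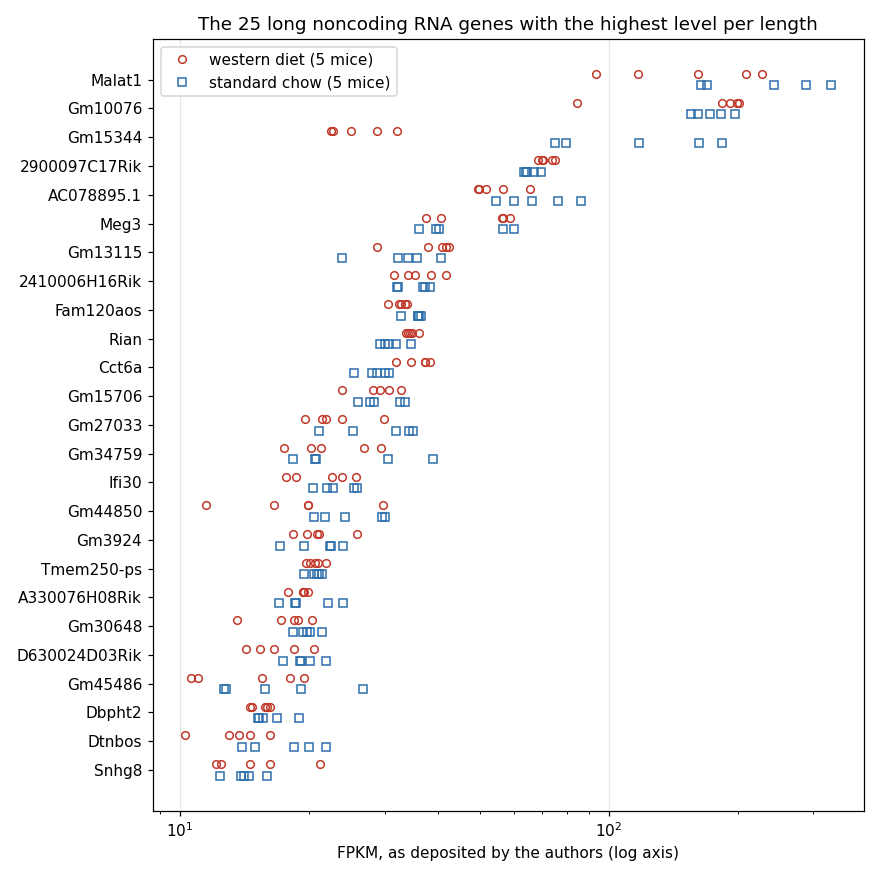
FPKM per mouse (log axis) of the 25 genes with the highest mean level per length, with western diet mice as circles drawn above chow mice as squares. Malat1 and Gm10076 lead, and Gm15344 is the gene whose diets lie furthest apart, at 22.5 to 32.1 FPKM on western diet and 74.7 to 183 FPKM on chow.

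The question put to the counts was which of these RNAs differ between western diet and chow islets. With edgeR's quasi-likelihood test and Benjamini-Hochberg adjustment over the 15104 genes tested, 12 of the 93 passed an adjusted p of 0.05, 4 higher and 8 lower on western diet. That is 12.9% of them, beside 10.8% of all tested genes and 15.0% of the coding genes with the same minimum mean count. By direction, 4.3% were higher and 8.6% lower, beside 5.27% and 5.5% of all tested genes and 8.11% and 6.86% of those coding genes. All 93 passed the filter on low counts, since their rule sets a higher minimum. The share called is therefore near the background, and the 12 are described singly.

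The log2 fold change of western diet over chow was below 0 for 59 of the 93 genes and had a median of -0.07, beside medians of 0.01 over all tested genes and 0.03 over the coding genes with the same minimum. In 8 genes the diets shared no part of their range, 3 higher and 5 lower; that is 8.6%, beside 8.85% of all tested genes, of which 4.44% were apart and higher and 4.42% apart and lower. By biotype, calls fell on 4 of 44 lincRNA genes, 4 of 26 processed_transcript genes and 4 of 23 antisense genes. Without the 15 coding genes and pseudogenes, 3 of the other 78 genes were called higher and 7 lower. The authors' deposited table has 18 of the 93 at an adjusted p under 0.05, 6 higher and 12 lower, and these include all 12.

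**Figure D2:**
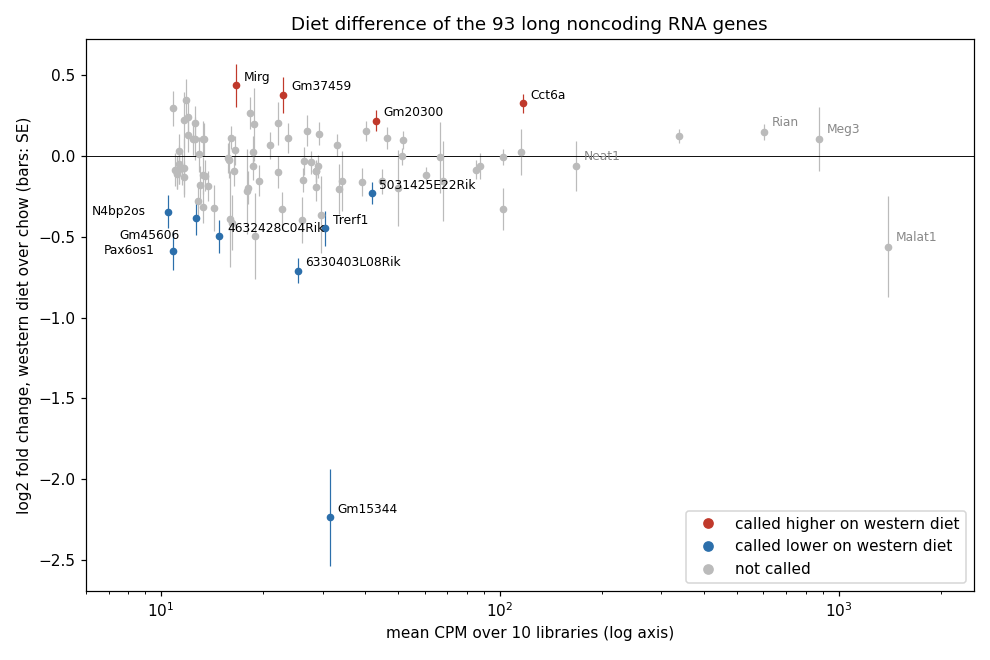
Log2 fold change of western diet over chow with its SE against mean CPM (log axis) for all 93 genes, with genes called higher in red, called lower in blue and not called in grey. Gm15344 at -2.24 stands apart, and the other called genes lie between -0.71 and 0.44.

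Gm15344 stood at 0.212 times its chow level on western diet, the largest difference of the 93. It had 10.6, 12.1, 9.50, 13.6 and 9.59 CPM in western diet islets, against 77.3, 49.4, 68.3, 33.5 and 31.5 CPM in chow islets. The diets did not overlap, and among chow mice, mouse 1 and mouse 3 were high and mouse 4 and mouse 5 low. The log2 fold change was -2.24 ± 0.30 (SE, adjusted p = 0.00388 by edgeR). Hsp90b1, in which it lies, averaged 1073 ± 76.7 CPM on western diet and 1256 ± 149 CPM on chow (SD, n = 5 each), with a log2 fold change of -0.23 (edgeR adjusted p = 0.0661). Both exons of Gm15344 lie within Hsp90b1 on the same strand, so its counts may hold reads of Hsp90b1 RNA. These may come from unspliced RNA in either exon and from spliced RNA in the 63 shared coding bases of exon 2. Their part in the difference was not tested. Hspa1b, a heat shock inducible chaperone gene on another chromosome, fell as well, to 71.3 ± 17.9 CPM on western diet against 638 ± 147 CPM on chow (SD, n = 5 each; edgeR adjusted p = 3.02e-04), and its part in the Gm15344 difference was not tested.

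6330403L08Rik, a single-exon RNA antisense to the growth factor gene Pdgfa, had the smallest adjusted p. It lies at chr5:138995056-139000577 on the plus strand. Its levels were 22.5, 17.7, 17.3, 20.8 and 17.8 CPM in western diet islets, against 31.7, 31.9, 33.5, 30.2 and 29.8 CPM in chow islets. The ranges were apart, and the log2 fold change of -0.71 ± 0.08 (SE) had an edgeR adjusted p of 3.82e-05. Pdgfa fell too, to 28.9 ± 1.95 CPM on western diet against 34.7 ± 3.39 CPM on chow (SD, n = 5 each), and its edgeR adjusted p was 0.0288 at a log2 fold change of -0.26. Pdgfa exons hold 14.7% of the exon bases of 6330403L08Rik.

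Pax6os1, which starts 1430 bases from the start of Pax6 on the other strand, fell on western diet. Pax6 is a homeodomain factor that islet endocrine cells need. Pax6os1 (chr2:105536080-105670330, minus strand) had 6.90, 9.73, 7.57, 9.15 and 9.84 CPM in western diet islets, against 13.0, 14.4, 13.5, 13.7 and 10.5 CPM in chow islets. All western diet mice lay below all chow mice, and chow mouse 5 came closest. The log2 fold change was -0.59 ± 0.12 (SE, edgeR adjusted p = 0.00472), and none of its exon bases lie in coding exons. Pax6 itself averaged 311 ± 6.46 CPM on western diet and 350 ± 26.5 CPM on chow (SD, n = 5 each), a log2 fold change of -0.17 (edgeR adjusted p = 0.0433). Paupar, a chromatin-associated RNA from the same locus studied in mouse neural cells, averaged 13.5 ± 1.10 CPM on western diet and 11.7 ± 1.58 CPM on chow (SD, n = 5 each), and its log2 fold change of 0.21 missed the threshold (edgeR adjusted p = 0.207).

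4632428C04Rik, a lincRNA gene of 3 exon blocks at chr16:30008667-30021430, fell as well. It had 15.5, 12.9, 10.7, 10.7 and 11.9 CPM in western diet islets, against 16.3, 19.5, 18.0, 17.5 and 15.9 CPM in chow islets. No western diet mouse reached the lowest chow mouse, and the log2 fold change was -0.50 ± 0.10 (SE, edgeR adjusted p = 0.00584). Its nearest coding gene is Hes1, a repressor acting downstream of Notch, 42954 bases away. Hes1 averaged 10.6 ± 0.994 CPM on western diet and 10.5 ± 1.59 CPM on chow (SD, n = 5 each), a log2 fold change of 0.01 (edgeR adjusted p = 0.952).

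Smaller differences were found in the remaining lower genes. Trerf1 averaged 25.8 ± 3.96 CPM on western diet and 35.3 ± 4.66 CPM on chow (SD, n = 5 each), and chow mouse 5 at 28.0 CPM lay among the western diet mice (log2 fold change -0.45, edgeR adjusted p = 0.0212). Gm45606, antisense to the amino acid transporter gene Slc43a2, had 8.91 to 13.7 CPM on western diet and 12.9 to 16.6 CPM on chow (log2 fold change -0.38, edgeR adjusted p = 0.0336). N4bp2os, which starts 858 bases from N4bp2 on the other strand, had 7.28 to 10.3 CPM on western diet and 10.7 to 12.1 CPM on chow (log2 fold change -0.34, edgeR adjusted p = 0.0378). The lincRNA 5031425E22Rik, 172 bases from the start of the chromatin reader gene Kmt2e, had 35.4 to 44.1 CPM on western diet and 40.2 to 48.9 CPM on chow (log2 fold change -0.23, edgeR adjusted p = 0.0433). The diets were apart in N4bp2os and overlapped in Trerf1, Gm45606 and 5031425E22Rik.

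Higher on western diet was Cct6a, with 135, 138, 135, 126 and 116 CPM in western diet islets, against 92.1, 111, 104, 109 and 102 CPM in chow islets. Both ranges were apart, and the log2 fold change was 0.33 ± 0.06 (SE, edgeR adjusted p = 0.00249). RefSeq lists Cct6a as coding, and its span in the table, chr5:129786998-129846371, holds 2 annotated snoRNAs.

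Gm20300, a single-exon lincRNA on chromosome 10, had 48.0, 52.6, 42.1, 44.4 and 44.4 CPM in western diet islets, against 37.1, 39.2, 41.6, 39.3 and 41.5 CPM in chow islets. The ranges lay side by side without overlap (log2 fold change 0.22 ± 0.06 SE, edgeR adjusted p = 0.0324). Gm37459, antisense to Pex5l, had 23.4, 25.2, 34.3, 22.7 and 24.1 CPM on western diet, against 22.6, 16.5, 22.1, 19.98 and 18.8 CPM on chow. Cage 4 mouse 4 was far above the other western diet mice, and the lowest of them, at 22.7 CPM, lay next to the highest chow mouse at 22.6 CPM (log2 fold change 0.38 ± 0.11 SE, edgeR adjusted p = 0.0455).

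These calls were not equally stable. Cct6a, Gm15344, 6330403L08Rik, Pax6os1 and 4632428C04Rik stayed called in each of the 10 fits that left out 1 library and in the 9 other fits tried. Gm37459 and Mirg each lost the call in 8 of the 10, at adjusted p values of 0.0513 to 0.0975 and 0.064 to 0.115. Gm37459 held only without western diet cage 4 mouse 5 or cage 2 mouse 5, and Mirg only without western diet cage 4 mouse 2 or chow mouse 3. For 5031425E22Rik the call was lost in 8 fits (adjusted p 0.0522 to 0.107), all but those without western diet cage 4 mouse 5 or chow mouse 3. Gm45606 lost it in 7 fits (0.0511 to 0.0851), all but those without western diet cage 2 mouse 5, chow mouse 1 or chow mouse 3. N4bp2os also lost it in 7 (0.0529 to 0.0949), all but those without western diet cage 4 mouse 1 or cage 2 mouse 5 or chow mouse 4. Gm20300 lost it in 6 (0.0527 to 0.0972), those without western diet cage 4 mouse 1 or 2 or without chow mouse 1, 2, 3 or 4. Trerf1 lost it in 3 (0.0512 to 0.0543), without western diet cage 4 mouse 1 or 2 or without chow mouse 1. Among the other fits, which kept the diet alone in the model, Mirg lost the call in 4, with RLE or upper quartile scaling, with the 5 CPM filter and without both the cage 2 mouse and chow mouse 1 (adjusted p 0.05 to 0.132). Gm37459 lost it in 3 (0.0503 to 0.0526), upper quartile scaling, the 5 CPM filter and limma-voom. For 5031425E22Rik it was lost in 3 (0.0514 to 0.0928), limma-voom, no robust moderation and without those 2 libraries, for N4bp2os in 2 (0.0512 and 0.0815), no filter and without them, and for Gm20300 in 1 (0.0725), without them. The direction of all 12 was the same in all of these edgeR, DESeq2 and limma-voom fits.

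**Figure D3:**
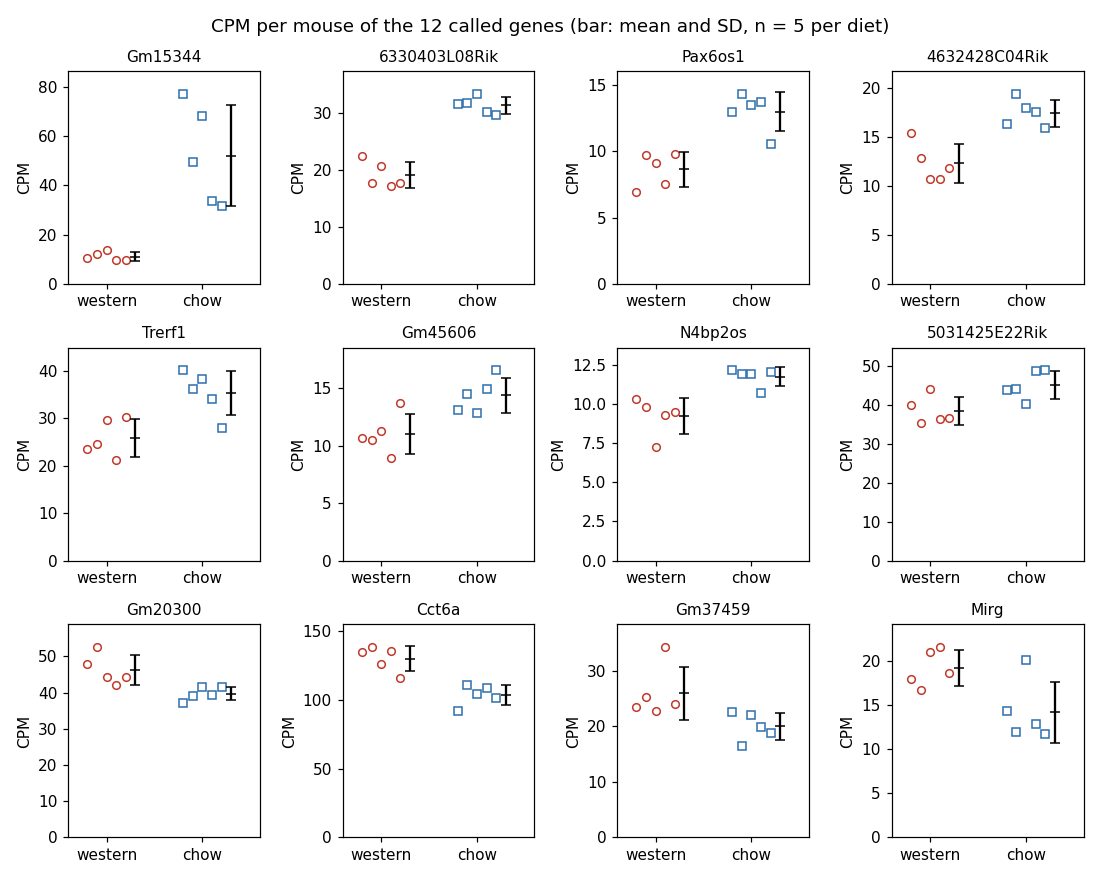
CPM per mouse of the 12 called genes, western diet (red circles) left of chow (blue squares), with the mean and SD of 5 mice as a black bar and each axis starting at 0. Gm15344 shows the widest spread among chow mice, 31.5 to 77.3 CPM, and still no overlap with the 9.50 to 13.6 CPM of western diet mice.

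Some genes missed the threshold in edgeR but passed it in the authors' own results. The authors' deposited table calls 6 that edgeR did not: Rian, 2900097C17Rik, AC078895.1, Dtnbos, 1810008I18Rik and Gm7160. Gm7160, which starts 124 bases from the zinc finger gene Zcchc2, averaged 11.8 ± 1.80 CPM on western diet and 14.7 ± 0.564 CPM on chow (SD, n = 5 each; log2 fold change -0.31, edgeR adjusted p = 0.0531, and 0.0426 in the authors' deposited table). Zcchc2 fell, with a log2 fold change of -0.32 (edgeR adjusted p = 5.77e-04). The lincRNA 1810008I18Rik had 15.8 to 25.2 CPM on western diet and 22.0 to 29.1 CPM on chow (edgeR adjusted p = 0.0582). Dtnbos, antisense to the dystrobrevin gene Dtnb, had 17.1 to 26.9 CPM on western diet and 23.1 to 36.4 CPM on chow (edgeR adjusted p = 0.0997). AC078895.1, which GENCODE M21 lists as coding, had 82.0 to 108 CPM on western diet and 90.7 to 143 CPM on chow (edgeR adjusted p = 0.137). The ranges of the diets overlapped in each of these genes. At an unadjusted p under 0.05 stood 27 of the 93. The share of all tested genes at that cut was not taken, so this count has no background. After adjustment, 10.8% of all tested genes passed.

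The imprinted cluster on chromosome 12 contributed 3 of the 93 genes. Meg3, Rian and Mirg are read from the maternal chromosome between the paternally expressed genes Dlk1 and Dio3, and Rian and Mirg carry many snoRNAs and microRNAs. Mirg (chr12:109729764-109749460) had 17.9, 16.7, 21.5, 21.04 and 18.6 CPM in western diet islets, against 14.4, 12.0, 20.1, 12.9 and 11.7 CPM in chow islets. Chow mouse 3 lay inside the western diet range, and the other chow mice lay below it. The log2 fold change was 0.44 ± 0.13 (SE, edgeR adjusted p = 0.047).

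Rian had 633, 619, 660, 618 and 628 CPM in western diet islets, against 561, 581, 628, 548 and 534 CPM in chow islets. Again only chow mouse 3 reached the western diet range, and the log2 fold change of 0.15 ± 0.05 (SE) missed the threshold at an edgeR adjusted p of 0.0623. Without chow mouse 3 it passed, with an adjusted p of 0.0348 (0.0348 to 0.147 over the 10 fits that left out 1 library), and the authors' deposited table gives it 0.0237. Meg3 varied widely within each diet, at 736, 677, 1026, 1076 and 1018 CPM on western diet and 1028, 727, 1088, 714 and 654 CPM on chow (log2 fold change 0.11, edgeR adjusted p = 0.788). None of the 4 tested coding genes of the domain passed. Rtl1, the retrotransposon-derived gene transcribed against this cluster, averaged 1.32 ± 0.348 CPM on western diet and 2.17 ± 1.38 CPM on chow (SD, n = 5 each; edgeR adjusted p = 0.249). Of 8 tested imprinted noncoding RNAs, members or not, Mirg alone passed, and the list's median log2 fold change was 0.07.

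Nuclear and widely expressed RNAs did not pass the test. Of 11 tested genes of that list none was called, with 4 above 0 and a median log2 fold change of -0.06. Malat1 had 817, 649, 1459, 1605 and 1125 CPM in western diet islets, against 2310, 1689, 2015, 1184 and 1144 CPM in chow islets. The diets overlapped, with cage 4 mice 4 and 5 inside the chow range and the other western diet mice below it, and the log2 fold change was -0.56 ± 0.31 (SE, edgeR adjusted p = 0.294). Neat1, the scaffold of paraspeckles, averaged 165 ± 31.0 CPM on western diet and 172 ± 30.4 CPM on chow (SD, n = 5 each; edgeR adjusted p = 0.851). Tug1 averaged 102 ± 3.81 CPM on western diet and 102 ± 5.39 CPM on chow, and Firre, an X-linked nuclear RNA, 117 ± 17.7 CPM on western diet and 115 ± 21.3 CPM on chow (SD, n = 5 each). The gene 2900097C17Rik had 336 to 367 CPM on western diet and 311 to 342 CPM on chow, with an edgeR adjusted p of 0.0889 and 0.0341 in the authors' deposited table.

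Proteins of the nuclear bodies were set beside these RNAs. None of 14 nuclear speckle protein genes passed; the 4 with the smallest p were Clk1, Srsf5, Luc7l3 and Srsf2, at edgeR adjusted p values of 0.0525 to 0.128. Of 12 paraspeckle protein genes, Rbm14 and Fam98a rose and Pspc1 fell. In either direction, 10.8% of all tested genes and 15.0% of coding genes with a mean count of at least 200 were called. Rbm14 averaged 40.5 ± 1.63 CPM on western diet and 31.9 ± 2.01 CPM on chow (SD, n = 5 each; edgeR adjusted p = 0.00165). Pspc1, a core paraspeckle protein, averaged 20.7 ± 1.63 CPM on western diet and 25.3 ± 2.64 CPM on chow (SD, n = 5 each; edgeR adjusted p = 0.0306). The medians over both lists were -0.08 for speckle and 0.02 for paraspeckle genes, beside 0.01 over all genes.

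Hosts of small nucleolar RNAs were 10 of the 93 by annotated position, with 49 entries in their spans that GENCODE gives the type small nucleolar or Cajal body RNA. Of these entries 2 carry microRNA symbols, Mir5117 in Gas5 and Mir3096 in AI506816, and AI506816 holds no other, so 9 hosts stand without them. Cct6a alone passed, where 10.8% of all tested genes did. Of the 10 hosts, 8 had a log2 fold change above 0, beside 34 of the 93 genes and 7708 of the 15104 tested genes. No difference between the hosts and other genes was tested. Gas5, a growth-arrest RNA whose span holds 10 of them, Mir5117 included, averaged 48.3 ± 5.39 CPM on western diet and 44.6 ± 2.11 CPM on chow (SD, n = 5 each; edgeR adjusted p = 0.303). Zfas1 had 13.7, 13.5, 12.8, 14.9 and 10.3 CPM in western diet islets, against 9.14, 11.2, 11.6, 11.0 and 11.9 CPM in chow islets. Its western diet cage 2 mouse was the exception to higher values on that diet, and the edgeR adjusted p was 0.152, or 0.0448 without that mouse (0.0448 to 0.352 over the 10 fits that left out 1 library). Snhg1, Snhg8, Snhg12 and Snhg17 had log2 fold changes of -0.05 to 0.11 and adjusted p values of 0.652 or more. Of 17 tested genes of the snoRNA host list, which overlaps the 93 in 6 genes, only Snhg18 passed, at 11.7 ± 2.00 CPM on western diet and 8.64 ± 1.39 CPM on chow (SD, n = 5 each; edgeR adjusted p = 0.0399); it was not among the 93.

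Genes of proteins that form snoRNA particles or help to assemble them were set beside the hosts. Of 13 tested genes of the snoRNA-protein list 6 rose and none fell, all 13 had a log2 fold change above 0, and the median was 0.23. Over all tested genes 5.27% were called higher and the median was 0.01, and over coding genes with a mean count of at least 200 the share was 8.11% and the median 0.03. The list was chosen with earlier results of these data known, so its counts are a description. Nolc1, a chaperone of nucleolar particles, averaged 62.9 ± 5.81 CPM on western diet and 48.6 ± 2.74 CPM on chow (SD, n = 5 each; edgeR adjusted p = 0.00181). Nop56, a core box C/D protein, averaged 48.2 ± 2.12 CPM on western diet and 39.5 ± 2.71 CPM on chow (SD, n = 5 each; edgeR adjusted p = 0.00554). Ruvbl2, Ruvbl1, Nop10 and Nop58 were the others that rose, with log2 fold changes of 0.23 to 0.32. No difference between this list and the host list was tested.

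Decay factors were checked since spliced snoRNA hosts are known targets of nonsense-mediated decay and many unstable noncoding RNAs of the nuclear exosome. None of 15 tested decay factor genes passed (Rbm8a, Smg6, Upf1 and Smg5 had the smallest edgeR adjusted p values, 0.0669 to 0.166), with a median log2 fold change of 0.01. Of 17 exosome and adaptor genes, Exosc1 alone passed (log2 fold change 0.30, edgeR adjusted p = 0.0444), and the median was 0.11.

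MicroRNA hosts were 8 of the 93, with 39 small RNA entries in their spans, and Mirg alone passed. A330023F24Rik, which holds the miR-29b and miR-29c hairpins printed above, had 16.3, 13.6, 25.9, 23.3 and 21.2 CPM in western diet islets, against 23.9, 14.8, 21.3, 12.6 and 15.0 CPM in chow islets (edgeR adjusted p = 0.628). The diets overlapped over nearly their whole ranges. A230057D06Rik, which holds the miR-344 cluster, averaged 46.5 ± 7.67 CPM on western diet and 53.4 ± 17.5 CPM on chow, and Mir670hg 27.3 ± 2.63 CPM on western diet and 28.0 ± 1.41 CPM on chow (SD, n = 5 each). Ftx, an X-linked RNA next to the X inactivation centre, averaged 16.8 ± 1.82 CPM on western diet and 19.4 ± 3.00 CPM on chow (SD, n = 5 each; edgeR adjusted p = 0.227).

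RNAs beside islet transcription factor genes were mostly not called. Plut, which in human islets is known to support PDX1 expression, is annotated across from Pdx1. It had 10.7, 16.9, 9.99, 14.1 and 26.5 CPM in western diet islets, against 21.7, 26.1, 25.0, 19.4 and 18.8 CPM in chow islets. The cage 2 mouse was above every other library and the other western diet mice were below every chow mouse (log2 fold change -0.50 ± 0.27 SE, edgeR adjusted p = 0.276). Gm27033, 4872 bases from Pdx1, averaged 12.7 ± 2.16 CPM on western diet and 16.0 ± 3.25 CPM on chow (SD, n = 5 each; edgeR adjusted p = 0.159). Pcsk2os1, across from the prohormone convertase gene Pcsk2, averaged 15.8 ± 1.34 CPM on western diet and 15.9 ± 1.70 CPM on chow (SD, n = 5 each). In the list of islet and endocrine RNAs, 1 of 3 tested genes passed, Pax6os1.

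Nearest coding genes were compared across all 93. They were 87 distinct genes, and 5 of them served several RNAs. In 20 cases the start sites lay within 1 kb on opposite strands. This class was set first, so some of its spans also overlap, as those of Cct6a and Psph do. Of the rest, the spans overlapped in 23, the gene was otherwise within 5 kb in 18 and over 5 kb away in 32. The coding gene was tested for 88 of the 93 and called for 14 of these, for 6 higher and for 8 lower. That is 15.9%, beside 10.8% of all tested genes and 15.0% of coding genes with a mean count of at least 200. The neighbours had no count minimum and a shared neighbour counts for each of its RNAs, so neither set matches them. Both genes of a pair were called in 2 cases, 6330403L08Rik with Pdgfa and Pax6os1 with Pax6, and both pairs were lower on western diet.

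Among the 88 RNAs with a tested neighbour, 54 had a log2 fold change of the same sign as it. Pearson's r between the log2 fold changes was 0.10 over the 88, and Spearman's rho was 0.22. By arrangement, Pearson's r was 0.44 over the 20 pairs with start sites within 1 kb on opposite strands, some of which also overlap. Over the 23 other pairs with overlapping spans it was 0.22. It was -0.09 over the 16 otherwise within 5 kb and -0.41 over the 29 more than 5 kb away. Some neighbours in the last class had low counts, such as Rtl1 with a mean count of 33.6. These are descriptions: the pairs share all 10 libraries, and overlapping pairs can share reads. The chromatin remodeller gene Chd2 fell to 73.6 ± 4.05 CPM on western diet against 97.3 ± 8.77 CPM on chow (SD, n = 5 each; edgeR adjusted p = 6.85e-04). The RNA upstream of it, 1810026B05Rik (Chaserr in RefSeq), which in mice is known to restrain Chd2, averaged 42.4 ± 3.91 CPM on western diet and 47.3 ± 4.83 CPM on chow (SD, n = 5 each; edgeR adjusted p = 0.191). Chd2 exons hold 30.5% of the exon bases of 1810026B05Rik.

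**Figure D4:**
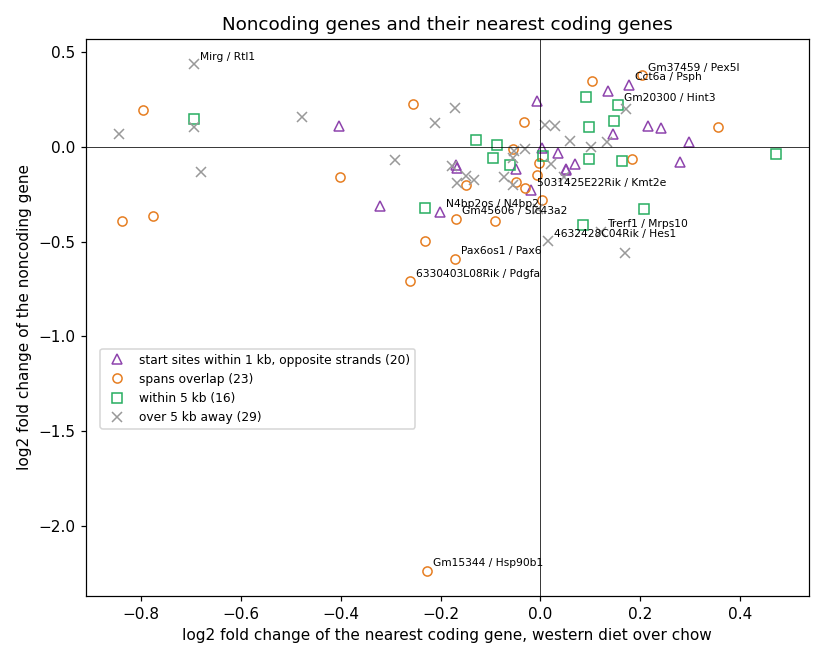
Log2 fold change (western diet over chow) of each RNA against that of its nearest coding gene for the 88 RNAs with a tested neighbour, with symbols for the arrangement of the pair and names for pairs whose RNA was called. Most pairs lie within 0.5 of 0 on both axes, and Gm15344 lies at -2.24 while Hsp90b1 is at -0.23.

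Variation between mice of the same diet was larger than the diet difference for some of these RNAs, such as Kcnq1ot1 (log2 fold change -0.39). It was not for Malat1 (-0.56) or Gm15344. The SD of log2 CPM within diets had a median of 0.17 and exceeded 0.3 in 14 genes, Malat1 (0.50), Kcnq1ot1 (0.48), Gm15344 (0.44) and Gm45486 (0.42) at the top. After the diet means were removed, 9 of the other 92 genes had a Pearson's r of at least 0.7 with Malat1 over the 10 libraries, namely Gm45486, A330023F24Rik, Meg3, Kcnq1ot1, Firre, Neat1, Gm49542, Gm6999 and A230057D06Rik. They were picked for this r, from 0.71 to 0.94 (Spearman's rho from 0.68 to 0.90), so no p is given. Without the libraries furthest from the Malat1 median, western diet cage 4 mouse 2 and chow mouse 5, r ran from 0.67 to 0.94. At -0.7 or below were 3 genes, Gm20208, Gm45847 and the called Gm20300, whose r was -0.55 without those libraries, and the median over the 92 was 0.08.

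The shared pattern was high in western diet cage 4 mice 4 and 5 and chow mice 1 and 3, and low in western diet cage 4 mice 1 and 2 and chow mice 4 and 5. Mitochondrially encoded genes took 1.37%, 1.54%, 1.69% and 1.40% of counts in the 4 high libraries and 1.17%, 1.14%, 1.24% and 1.34% in the 4 low ones, with 1.69% in the cage 2 mouse and 1.36% in chow mouse 2, and their part in the pattern was not tested. Summed acinar markers, 11 of 12 tested and none at 0 in all libraries, were 3826, 6227, 727 and 1833 CPM in western diet cage 4 mice 4 and 5 and chow mice 1 and 3, the high libraries. In the low libraries, western diet cage 4 mice 1 and 2 and chow mice 4 and 5, they were 847, 1453, 3020 and 1920 CPM. Acinar sums were thus higher in the high libraries among the western diet mice of cage 4 and lower in them among those chow mice, and their part in the pattern was not tested.

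**Figure D5:**
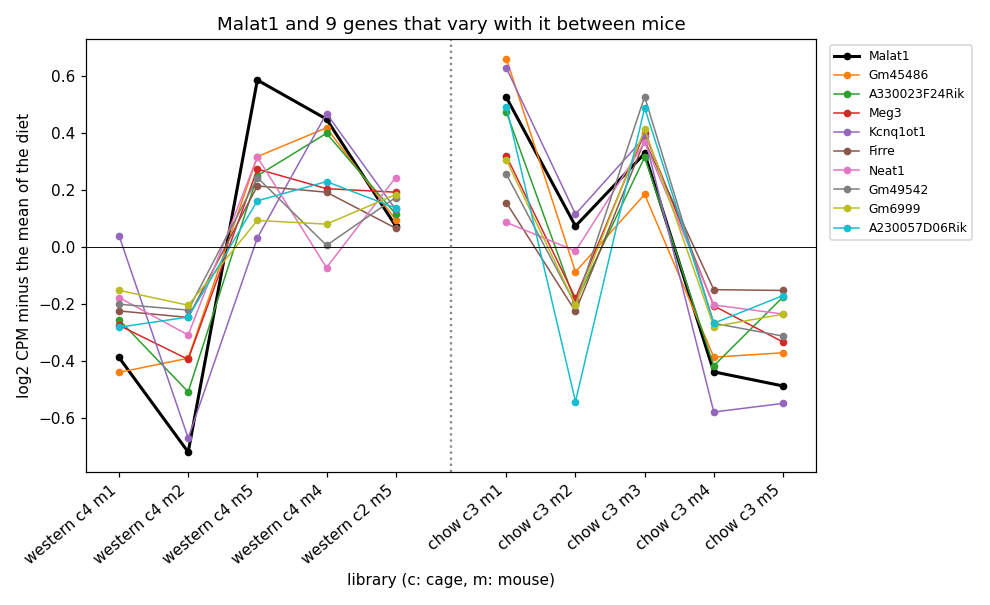
Log2 CPM minus the mean of the diet for Malat1 (black) and the 9 genes that vary with it, western diet mice left of chow mice. Nearly all lines are below 0 in western diet cage 4 mice 1 and 2 and chow mice 4 and 5. Nearly all are above 0 in western diet cage 4 mice 4 and 5, cage 2 mouse 5 and chow mice 1 and 3.

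Markers of other cells were read beside the called RNAs. Summed duct markers were lower on western diet, 566 to 675 CPM against 711 to 900 CPM on chow, with 3 of 8 tested genes called lower and none higher. Endothelial markers summed to 371 to 430 CPM on western diet and 428 to 475 CPM on chow, with 1 of 8 called lower. Macrophage and leukocyte markers summed to 133 to 253 CPM on western diet and 149 to 199 CPM on chow, and mesenchymal markers to 120 to 152 CPM on western diet and 121 to 233 CPM on chow, with 1 gene lower in each list. Alpha cell markers summed to 9955 to 13754 CPM on western diet and 10504 to 15615 CPM on chow, with 1 of 5 called higher. No acinar, delta, PP or Schwann cell marker was called. Of the 8 beta cell markers, 1 was called higher and 1 lower. Over all tested genes, 5.27% were called higher and 5.5% lower. The part of these cells in the calls was not tested, and in whole islets fewer cells of a type and less RNA per cell cannot be told apart.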

How the data were processed

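RNA was sequenced from islets of 10 mice, 5 per diet, from libraries that, per the labels' protocols, were made with a NEBNext Ultra kit. Per the submitters' processing notes, STAR 2.5, HTSeq 2 and DESeq2 were used on mm10 (GRCm38); their order, the strand setting and the counting mode are not given in the sources used here. The deposited table holds raw read counts per gene, FPKM that the authors computed per gene length, and the authors' own log2 fold changes, p-values and adjusted p-values; 10 further columns of normalized counts were not used. Groups and cages came from the sample titles, and genes from the table's symbols.

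From the counts, edgeR 4.0.16 (R 4.3.3) kept genes with filterByExpr at a minimum count of 10, scaled by TMM and fitted a robust quasi-likelihood model with diet alone; a gene was called at a Benjamini-Hochberg adjusted p under 0.05 over 15104 genes. CPM are TMM-scaled. Alternatives were RLE and upper quartile scaling, no filter, a 5 CPM filter, DESeq2 1.42.0, limma-voom 3.58.1, no robust moderation, mouse number as a block, each library left out, and other member rules. The script was tested on simulated counts. Mouse numbers shared between diets did not pair the libraries. Libraries are separate mice, and no pair had the same count in more than 1.72% of genes with at least 10 counts. Library totals ran from 16532518 to 23902681 counts. Precision did not follow the mean count alone. The SE of the log2 fold change was 0.31 for Malat1 and 0.05 for Rian, both with high counts. It was 0.12 for Pax6os1, near the minimum mean count of 200.

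The members and lists were chosen with earlier results of these data known. Named genes were members in the lists, all called members, the 10 members with the highest CPM, neighbours of called members, the genes with the smallest p of each protein list and the members beside the count minimum. Genes that vary with Malat1, members that microRNAs or snoRNAs lie in, Hspa1b, Chd2, Plut and other members outside this rule were chosen after their values were seen. RefSeq or GENCODE M21 supplied sequences, small RNA positions and biotypes; the nearest coding gene was found from the table's coordinates, and 92 of 93 spans are the same in M21.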

Additional observations from a re-analysis of the deposited data

Results flagged for a closer look

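Among 66 groups of 5 mice examined, 3 had a library far from the rest of its diet, which is near the share that chance gives, about 1 in 20. The groups were those of the 33 members named by the fixed rule, in both diets. Members named outside that rule, Gm10076 with its low value in western diet cage 4 mouse 5 among them, were not examined in this way. A330076H08Rik, whose nearest coding gene is Ndn, was low in western diet cage 4 mouse 2, at 79.2 CPM beside 86.4 to 88.4 CPM in the other western diet mice. Gm37459 was high in western diet cage 4 mouse 4, at 34.3 CPM beside 22.7 to 25.2 CPM, and without that mouse it was no longer called. N4bp2os was low in chow mouse 4, at 10.7 CPM beside 11.9 to 12.1 CPM in the other chow mice, and without that mouse it stayed called.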

How the results depend on the processing

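The counts of 4 higher and 8 lower genes moved with the fit. Higher genes numbered 2 with upper quartile scaling, 2 with a 5 CPM filter, 2 without both the cage 2 mouse and chow mouse 1, and 1 to 4 with 1 library left out. Lower genes numbered 4 to 9 with 1 library left out and 10 with the 5 CPM filter. Of the fits of the 93, DESeq2 gave the most calls, 6 higher and 12 lower, with 2075 over all genes and 20 RNAs with a called nearest coding gene. By construction, other member rules changed both: a mean count of at least 100 gave 8 higher and 13 lower, at least 500 gave 2 and 3, genes over 5 kb from every coding gene 1 and 2, and lincRNA genes alone 2 and 2. Without coding genes and pseudogenes, a rule chosen after seeing the data, there were 3 and 7. The mouse number did not pair the libraries: same-numbered libraries correlated at -0.12 to 0.07 in their deviations and others at -0.22 to 0.20, and 1 of 5 western diet libraries correlated best with its own number. With it as a block, Trerf1 (adjusted p = 0.0955), Gm20300 (0.071) and N4bp2os (0.117) were not called, 3 genes were higher and 7 lower, calls over all genes were 841 in place of 1627, and 7 in place of 14 RNAs had a called nearest coding gene. With 1 library left out those 2 counts ran from 938 to 1813 and from 7 to 19. Which cause lies behind these changes was not tested.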
